A study of Homo sapiens with 16 samples.

Results

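The comparison described here is the first step of a label chase in control cells, labelled wild type, of THP-1, a monocytic line derived from human acute leukaemia: control libraries collected 1.5 h after the label was washed out, set against control libraries collected at the wash (0 h). It uses 4 of the 16 libraries of the series, replicates 1 and 2 at 1.5 h and replicates 1 and 2 at 0 h, and 10539 of the 60564 genes of the deposited table. Genes entered with an abundance of at least 5 CPM (reads of a gene scaled to the total of the library) and a value above 0 in at least 1 of the 4 libraries. All cells, those at 0 h included, had been given 100 µM 4-thiouridine (4sU), a uridine analogue that cells build into new RNA, for 1 h. They were then rinsed with saline and kept in medium with 10 mM unlabelled uridine, the chase, and polyadenylated RNA was taken. The same cells with a knockdown (A5-KD) of ALKBH5, an RNA demethylase, gave other libraries used here. These are 2 at 1.5 h and 2 at 0 h. Control cells gave 2 more at 4.5 h and 2 at 7.5 h. The A5-KD libraries at 4.5 h and 7.5 h, 2 at each time, entered only the fits on all 16 libraries. The labels do not say how the knockdown was made, nor whether replicates were separate cultures; the p-values may therefore reflect technical spread alone.

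In this assay, SLAM-seq, incorporated 4sU is chemically altered so that it is read as C in place of T, and the share of T positions read as C measures how much of a gene's RNA was made during the labelling. After the wash, messages that turn over quickly lose their label fast, and stable ones keep it. Labelled RNA that was still being copied, spliced or exported at the wash goes on entering the mature polyadenylated pool for a while, and 4sU already inside the cell can still be used, so label can also be gained early in a chase. Immediate early transcription factors, inflammatory cytokines and their feedback inhibitors are textbook examples of short-lived messages, and many carry AU-rich elements in their 3′ untranslated regions (UTRs) that recruit decay factors; messages for ribosomal proteins and respiratory chain subunits are textbook examples of stable ones.

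AU-rich sites from 6 genes are shown because their rates are given below: TNF and CCL4 are cytokines, ZFP36 and NFKBIA feedback inhibitors, and ZEB2 and ZNF24 transcription factors outside the classes just named. Each is printed 5′ to 3′ on the gene's own strand and comes from the 3′ UTR of the gene's selected GENCODE 29 transcript. A shorter core with the most copies of the heptamer TATTTAT was taken and extended on both sides to at most 30 bases. Copies counted in the core are in capitals, so another stretch of 30 bases may hold more.
TNF: tgtgatTATTTATTATTTATTTATtattta
CCL4: gtcatttccatTATTTATattagtttagc
ZFP36: aatgggcccttTATTTATgacgactttat
NFKBIA: accacattttaTATTTATtgtgcttcgag
ZEB2: gaacaacaTATTTATATTTATtccttagc
ZNF24: gatgtgattTATTTATTTATaactggctt
On the GRCh38 build these lie in 3′ UTR exons at chr6:31577995-31578024 on the plus strand (TNF), chr17:36105466-36105494 on the plus strand (CCL4), chr19:39409181-39409209 on the plus strand (ZFP36), chr14:35401699-35401727 on the minus strand (NFKBIA), chr2:144387145-144387173 on the minus strand (ZEB2) and chr18:35335189-35335217 on the minus strand (ZNF24). The whole 3′ UTR held 8 copies in TNF, 7 in ZEB2, 5 in ZNF24, 3 in ZFP36, 2 in NFKBIA and 1 in CCL4.

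By the abundance column, 11 of 14 monocytic markers reached 5 CPM, with the lysozyme gene LYZ the highest at 1276 CPM, while CD14 (2.22 CPM), ITGAM (1.93 CPM) and the granule enzyme MPO (0.185 CPM) did not. None of 12 erythroid and 7 epithelial or kidney markers and 3 of 12 lymphoid markers reached it. ALKBH5 itself, at 4.55 CPM, lay under the minimum; its rate was 0.802 and 0.745% at 1.5 h, against 0.812 and 0.386% at 0 h. The table holds no abundance by library, so the knockdown could not be checked, and neither could the number of T bases behind any rate.

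Over all tested genes, median conversion at 1.5 h was 0.479 and 0.473% in replicates 1 and 2, against 0.544 and 0.561% at 0 h, or 0.476 ± 0.00440% and 0.553 ± 0.0121% (mean ± SD of 2 library medians). The distribution was also narrower, mostly at its upper end. The upper quartile averaged 0.635% at 1.5 h, against 0.826% at 0 h, while the lower quartile averaged 0.286% at 1.5 h, against 0.276% at 0 h. On the scale used for testing, log2 of the rate in percent plus 0.05, the median change (1.5 h minus 0 h) was −0.15, and the quartiles lay at −0.52 and 0.20. Centring each library on its own median shifts every change by 0.20 upward, so a gene or list is described below by both values. A rate is the share of a gene's T positions read as C, not the share of its RNA that is new. It falls as unlabelled RNA takes the place of labelled RNA, and loss that takes both alike leaves it unchanged. It carries no information on abundance.

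**Figure D1:**
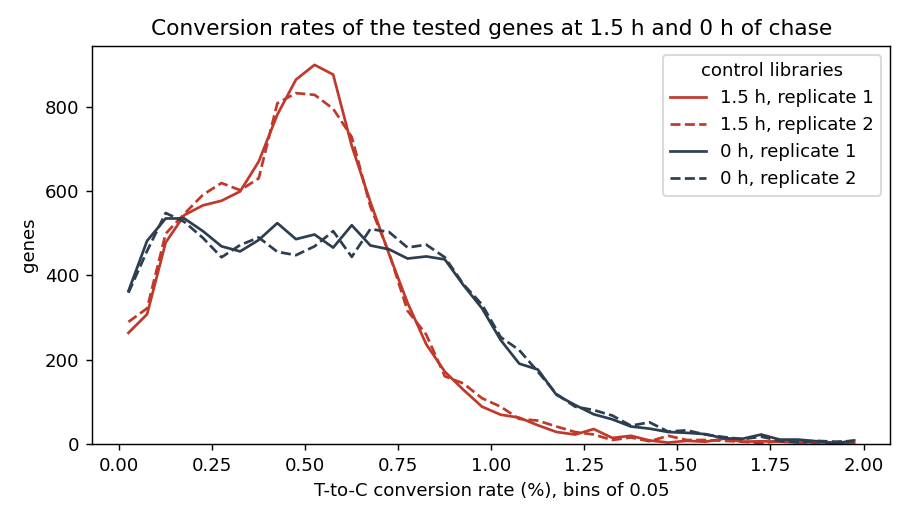
Number of tested genes (y axis) by conversion rate in percent (x axis, bins of 0.05) in the 4 control libraries; solid lines are replicate 1 and dashed lines replicate 2. The 1.5 h libraries peak near their medians of 0.479 and 0.473%, and the 0 h libraries have more genes at high rates and slightly more at the lowest.

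No single gene passed the threshold of an adjusted p of 0.05 in limma fitted to the 8 control libraries: 0 of 10539 were called lower (0%) and 0 higher (0%), with a smallest adjusted p of 0.273. Unadjusted p-values under 0.05 in the same limma fit numbered 812 lower (7.7%) and 369 higher (3.5%); with libraries centred they numbered 308 lower (2.92%) and 898 higher (8.52%). Without overlap between the times, both 1.5 h libraries lay below both 0 h libraries in 3536 genes (33.6%) and above both in 1733 genes (16.4%). After centring these shares were 22.4% and 27.2%. An exact permutation test of 2 libraries against 2 cannot give a two-sided p below 0.333, so the per-gene statements below are values, not calls, and the counts of lists are read against these background shares.

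When all 16 libraries shared the estimate of spread, limma called 34 genes lower (0.323%) and 8 higher (0.0759%). Each of those calls was lost when any 1 of the 4 libraries was left out of that fit (0 genes called in each of the 4 refits), so they depend on every library. They also depend on the scale, in settings added after seeing the data: with libraries centred the same fit called 9 lower and 104 higher, with 16 of the 42 genes shared, and with a pseudocount of 0.01 it called 9 lower and 7 higher, with 15 shared. The balance of directions among the calls therefore turns with centring, and what follows on the calls holds for rates as deposited. The genes called lower in that fit had a median span of 221 kb from start to end, and 24 of the 34 spanned over 100 kb, against 23.0% of all genes with an annotated span; the 8 genes called higher had a median span of 6.23 kb and none spanned over 100 kb. Genes from this set are named as chosen after their values were seen.

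Of the 34 genes lower in that fit, the smallest adjusted p belonged to HDAC9, a class IIa histone deacetylase, at 0.583 and 0.532% at 1.5 h, against 1.03 and 0.916% at 0 h. Its change was −0.75 ± 0.12 (SE; centred −0.56), with an adjusted p of 0.273 in limma on the control libraries and 0.0256 in limma on all 16. CUX1, a homeodomain transcription factor, had 0.544 and 0.578% at 1.5 h, against 0.975 and 1.02% at 0 h (change −0.78 ± 0.13). DOCK8, an exchange factor for the GTPase CDC42 in leukocytes, had 0.546 and 0.546% at 1.5 h, against 0.851 and 0.82% at 0 h (change −0.57 ± 0.10). In all 3 genes the libraries of the 2 times were well apart. CLK4, a kinase that phosphorylates SR splicing factors, had the largest drop of the calls: 0.208 and 0.279% at 1.5 h, against 1.11 and 1.35% at 0 h, a change of −2.13 ± 0.36 (limma adjusted p 0.273; 0.0343 with all 16 libraries). Its rate did not stay low, since the 2 libraries at 4.5 h averaged 0.496%. CS, the citrate synthase of the tricarboxylic acid cycle, had 0.39 and 0.369% at 1.5 h, against 0.906 and 1.05% at 0 h, and NRIP1, a nuclear receptor corepressor, had 0.43 and 0.373% at 1.5 h, against 1.37 and 1.07% at 0 h. With all 16 libraries centred, the calls of HDAC9, CUX1, CLK4, CS and NRIP1 were kept and that of DOCK8 was lost (limma adjusted p 0.0689). CS shares exon bases with genes on both strands, and the sources used here do not say whether strand was used in the counting.

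Immediate early factors of the AP-1, EGR, ATF3 and MYC families stood lowest of the lists with at least 9 tested members. Of 27 listed, 19 were tested; the 1.5 h libraries lay below the 0 h libraries in 14 (73.7%, against 33.6% of all genes) and above in 0. The median change was −0.82 (centred −0.62), against −0.15 (centred 0.05) for all genes. MYC, the growth-promoting basic helix-loop-helix factor, had 0.523 and 0.44% at 1.5 h, against 1.78 and 1.02% at 0 h; its change was −1.40 ± 0.41 (limma adjusted p 0.345). The 2 libraries of MYC at 0 h lay far from each other, but neither reached the 1.5 h values. EGR1, a zinc finger factor induced within minutes of a stimulus, had 0.538 and 0.376% at 1.5 h, against 1.02 and 1.14% at 0 h (change −1.17 ± 0.41). ID1, an inhibitor of helix-loop-helix factors, had 0.564 and 0.604% at 1.5 h, against 1.26 and 1.47% at 0 h (change −1.16 ± 0.46). FOSL1, an AP-1 subunit, had 0.625 and 0.692% at 1.5 h, against 1.4 and 1.32% at 0 h (change −1.0 ± 0.42). The groups did not overlap in any of these 4 genes, and their adjusted p-values in limma lay between 0.345 and 0.44.

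**Figure D2:**
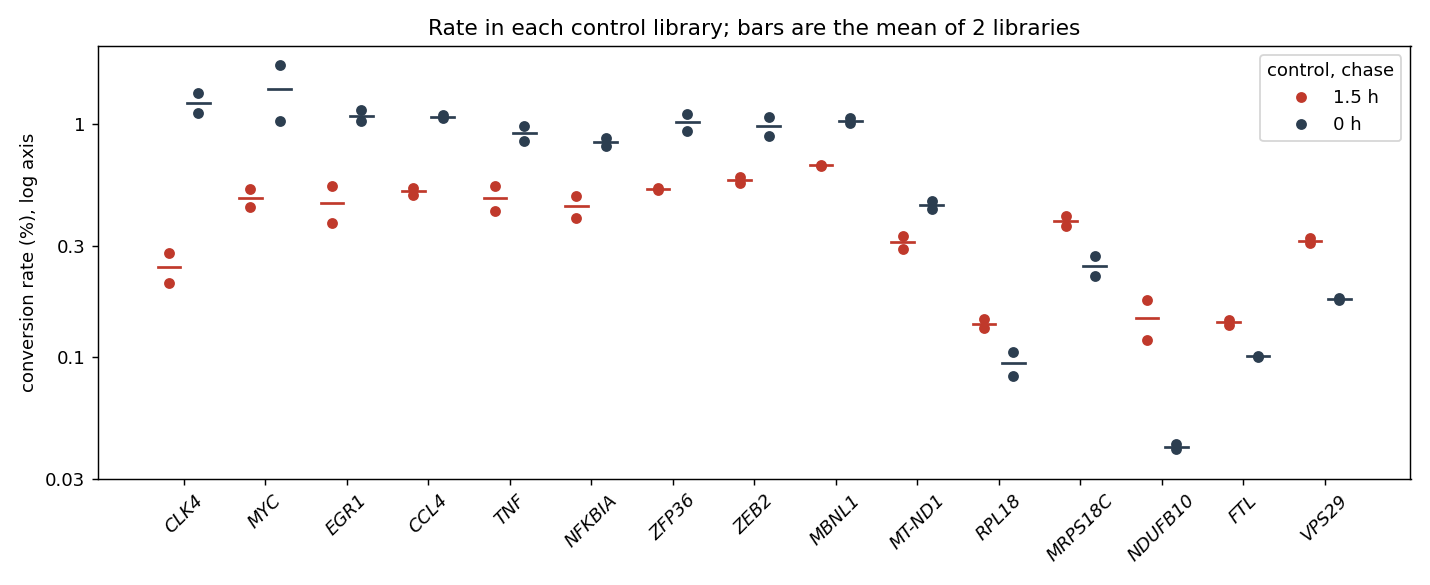
Conversion rate in percent (log axis) in each control library for 15 genes; red points are the 2 libraries at 1.5 h, dark points the 2 libraries at 0 h, and bars their means. From CLK4 to MT-ND1 both red points lie below both dark points, and from RPL18 to VPS29 both lie above.

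Of 17 tested cytokine and chemokine messages, 9 had both 1.5 h libraries below (52.9%, against 33.6% of all genes). Another 3 lay above (17.6%, near the 16.4% of all genes). The median was −0.24 (centred −0.04). CCL4, a chemokine for monocytes and T cells, had 0.53 and 0.495% at 1.5 h, against 1.09 and 1.05% at 0 h. Its change was −1.0 ± 0.16 (centred −0.80), with a limma adjusted p of 0.273 on the control libraries and 0.0383 on all 16. The 2 values of each time were close together and the groups lay far apart. CCL3, its neighbour in the same chemokine cluster, had 0.703 and 0.697% at 1.5 h, against 0.98 and 1.06% at 0 h (change −0.51 ± 0.10); its copy CCL3L3 had 0.678 and 0.835% at 1.5 h, against 1.3 and 1.16% at 0 h (change −0.67 ± 0.16). CCL3 and CCL4 have near-identical copies in that cluster, among which reads may be split, and CCL3 overlaps an antisense gene. TNF, the inflammatory cytokine with the AU-rich stretch printed above, had 0.42 and 0.538% at 1.5 h, against 0.842 and 0.973% at 0 h (change −0.86 ± 0.30). LTB, a membrane-bound cytokine of the same superfamily, named after its values were seen, was on the other side, at 0.39 and 0.46% at 1.5 h, against 0.248 and 0.188% at 0 h (change 0.83 ± 0.33).

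Among NF-kB subunits and feedback inhibitors, 10 of 18 tested were below (55.6%) and 1 above (5.56%), with a median of −0.46 (centred −0.27). NFKBIA, the inhibitor that holds NF-kB in the cytoplasm, had 0.394 and 0.491% at 1.5 h, against 0.864 and 0.803% at 0 h (change −0.85 ± 0.20, limma adjusted p 0.304). TRAF3, a brake on noncanonical NF-kB signalling, had 0.442 and 0.59% at 1.5 h, against 0.939 and 0.868% at 0 h (change −0.76 ± 0.21). Both genes had separate groups. Of the MAP kinase feedback inhibitors only 5 were tested, 3 of them below (60.0%, against 33.6% of all genes) and 0 above. SPRED2 was below, at 0.47 and 0.355% at 1.5 h, against 0.946 and 0.953% at 0 h. In this list 1 member had a higher mean, with a change of 1.94 and overlapping libraries. Of 7 tested Toll-like receptors and adaptors, 4 were below (57.1%, against 33.6% of all genes) and 0 above. TLR2, the receptor for bacterial lipoproteins, had 0.654 and 0.652% at 1.5 h, against 1.6 and 1.31% at 0 h (change −1.09 ± 0.24).

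Of 16 tested messages for proteins that destabilise other messages, 10 were below (62.5%) and 1 above (6.25%), with a median of −0.47 (centred −0.27). ZFP36, tristetraprolin, which binds AU-rich elements and carries them itself, had 0.517 and 0.532% at 1.5 h, against 0.925 and 1.1% at 0 h (change −0.88 ± 0.30). Its relative ZFP36L2 had 0.519 and 0.666% at 1.5 h, against 1.01 and 1.1% at 0 h (change −0.78 ± 0.30). The 1 member above without overlap was KHSRP, another binder of AU-rich elements. It had 0.43 and 0.513% at 1.5 h, against 0.279 and 0.341% at 0 h (change 0.54 ± 0.21). By value, 4 of the 16 had a change over 0, the largest of them 0.58. The general decay machinery (the deadenylase, decapping, exosome and nonsense-mediated decay subunits) was nearer to the background, with 12 of 34 tested below (35.3%), 2 above (5.88%) and a median of −0.27 (centred −0.07).

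Transcription factors of the myeloid lineage and of MLL-fusion leukaemia, the kind of leukaemia THP-1 comes from, were covered by 2 lists. Of 26 tested myeloid factors, 18 were below (69.2%) and 1 above (3.85%), with a median of −0.44 (centred −0.24); of 20 tested MLL-fusion regulators, 11 were below (55.0%) and 0 above, with a median of −0.54 (centred −0.35). MBNL1, a splicing regulator listed with the MLL-fusion genes, had 0.657 and 0.665% at 1.5 h, against 1.05 and 1% at 0 h (change −0.60 ± 0.09; limma adjusted p 0.273, and 0.0343 with all 16 libraries). PBX3, a cofactor of HOX proteins, had 0.591 and 0.578% at 1.5 h, against 0.924 and 1.02% at 0 h (change −0.68 ± 0.12). ZEB2, a zinc finger repressor needed in myeloid cells, had 0.558 and 0.589% at 1.5 h, against 0.884 and 1.06% at 0 h (change −0.71 ± 0.13). All 3 were separate between the times and were among the 34 genes called with all 16 libraries; with those centred the call of MBNL1 was kept, and those of PBX3 and ZEB2 were lost (limma adjusted p 0.0663 and 0.0657). MYB, the haematopoietic proto-oncogene, had 0.49 and 0.501% at 1.5 h, against 0.89 and 0.781% at 0 h (change −0.70 ± 0.13, limma adjusted p 0.273), and FLI1, an ETS factor, had 0.678 and 0.528% at 1.5 h, against 1.1 and 0.973% at 0 h (change −0.74 ± 0.19). ETS2, another ETS factor, had the largest drop of the myeloid factors named here, at 0.433 and 0.558% at 1.5 h, against 1.13 and 1.18% at 0 h (change −1.15 ± 0.34). MBNL1 and ZEB2 overlap antisense genes.

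The zinc finger factors of the C2H2 (ZNF) class, a large group of DNA-binding proteins, were tallied as a list without lineage. Of 49 tested, 29 were below (59.2%, against 33.6% of all genes) and 5 above (10.2%, against 16.4%). The median was −0.44 (centred −0.24). ZNF91, a repressor of retrotransposons, had 0.549 and 0.556% at 1.5 h, against 1.16 and 1.16% at 0 h (change −1.01 ± 0.27). ZNF24, whose 3′ UTR site is printed above, had 0.615 and 0.683% at 1.5 h, against 1.24 and 1.05% at 0 h (change −0.77 ± 0.28). ZNF511 was above, at 0.535 and 0.827% at 1.5 h, against 0.16 and 0.308% at 0 h, and it overlaps a gene on the other strand.

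Other proteins also handle N6-methyladenosine, the RNA mark that ALKBH5 removes. Of 9 tested subunits of the methyltransferase complex, 4 were below (44.4%) and 0 above. Of 9 tested readers, 5 were below (55.6%) and 0 above. Of all genes, 33.6% were below and 16.4% above. These counts, from 9 members each, were not tested against those shares. FTO, the other demethylase of this mark, had 0.439 and 0.471% at 1.5 h, against 0.819 and 1.01% at 0 h; its change was −0.93 ± 0.21 (centred −0.73, limma adjusted p 0.304). CBLL1, an accessory subunit of the methyltransferase, had 0.554 and 0.66% at 1.5 h, against 1.09 and 0.876% at 0 h (change −0.65 ± 0.34). YTHDF3, a cytoplasmic reader, had 0.569 and 0.664% at 1.5 h, against 0.955 and 0.984% at 0 h (change −0.62 ± 0.22). The groups were separate in each of these 3 genes.

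Of the lists with at least 9 tested genes, messages made inside mitochondria had the largest share of lower members: 12 of 13 were below (92.3%) and 0 above. Their median change was smaller than that of the early response genes, at −0.38 (centred −0.18), and their label was lower at the start. MT-ND5, a subunit of respiratory complex I, had 0.282 and 0.31% at 1.5 h, against 0.458 and 0.434% at 0 h (change −0.52 ± 0.11). MT-ND1, of the same complex, had 0.291 and 0.33% at 1.5 h, against 0.428 and 0.466% at 0 h (change −0.47 ± 0.10). Both had a limma adjusted p of 0.304 on the control libraries and 0.0472 on all 16, and neither was called with those centred (0.126 for MT-ND5 and 0.154 for MT-ND1). MT-CO2, a subunit of cytochrome oxidase, had 0.279 and 0.288% at 1.5 h, against 0.389 and 0.378% at 0 h (change −0.38 ± 0.09).

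Nuclear genes for the same respiratory chain pointed the other way. Of 38 tested nuclear-encoded complex I subunits, 20 were above (52.6%, against 16.4% of all genes) and 3 below (7.89%), with a median of 0.23 (centred 0.43); of 39 tested subunits of complexes II to V, 21 were above (53.8%) and 3 below (7.69%), with a median of 0.18 (centred 0.37). NDUFB10, an accessory subunit of complex I, had 0.118 and 0.175% at 1.5 h, against 0.0422 and 0.0402% at 0 h; its change was 1.09 ± 0.16 (limma adjusted p 0.273, and 0.0383 with all 16 libraries). Both 0 h values lay under the pseudocount of 0.05, so this change is understated on the log2 scale. NDUFA6, of the same complex, had 0.23 and 0.229% at 1.5 h, against 0.166 and 0.164% at 0 h (change 0.38 ± 0.10), and UQCR11, of complex III, had 0.134 and 0.155% at 1.5 h, against 0.083 and 0.099% at 0 h (change 0.46 ± 0.12). Groups were separate in all 3 genes. NDUFA6 and UQCR11 share exon bases with other annotated genes.

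Messages for mitochondrial ribosomal proteins, which come from nuclear genes, were higher to a like extent: 30 of 56 were above (53.6%) and 2 below (3.57%), with a median of 0.27 (centred 0.47). MRPS18C, of the small mitochondrial subunit, had 0.402 and 0.363% at 1.5 h, against 0.221 and 0.271% at 0 h (change 0.55 ± 0.12, limma adjusted p 0.304). MRPL33, of the large one, had 0.372 and 0.373% at 1.5 h, against 0.232 and 0.14% at 0 h (change 0.87 ± 0.21). Cytosolic ribosomal proteins leaned the same way to a lesser extent, with 18 of 47 large-subunit members above (38.3%) and 5 below (10.6%), and 10 of 32 small-subunit members above (31.2%) and 5 below (15.6%); their medians were 0.16 and 0.11 (centred 0.36 and 0.31). RPL18 had 0.145 and 0.133% at 1.5 h, against 0.0832 and 0.105% at 0 h (change 0.39 ± 0.10). RPL21 was an exception, at 0.685 and 0.768% at 1.5 h, against 1.15 and 2.16% at 0 h. Ribosomal protein genes have many processed pseudogenes to which reads may be lost, so each of these values is uncertain.

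Further genes that lay above included the first call with all 16 libraries. VPS29, a subunit of the retromer that recycles membrane proteins, had 0.306 and 0.323% at 1.5 h, against 0.179 and 0.175% at 0 h. Its change was 0.69 ± 0.09 (centred 0.88), with a limma adjusted p of 0.273 on the control libraries and 0.0165 on all 16, the smallest in that fit. FTL, the ferritin light chain, had 0.137 and 0.144% at 1.5 h, against 0.101 and 0.0999% at 0 h (change 0.34 ± 0.07; 0.0472 with all 16), and ATP6V0B, a subunit of the proton pump of lysosomes, had 0.276 and 0.281% at 1.5 h, against 0.184 and 0.153% at 0 h (change 0.59 ± 0.11; 0.0472 with all 16). The 2 libraries of each time were close together and the groups were separate in these 3 genes. Of 34 tested proteasome subunits, 10 were above (29.4%) and 3 below (8.82%), with PSMA7 at 0.232 and 0.186% at 1.5 h, against 0.149 and 0.143% at 0 h (change 0.40 ± 0.09). HSPE1, the mitochondrial co-chaperonin, had 0.248 and 0.218% at 1.5 h, against 0.17 and 0.153% at 0 h (change 0.42 ± 0.10). Its divergent partner HSPD1 had 0.156 and 0.178% at 1.5 h, against 0.0936 and 0.11% at 0 h (change 0.51 ± 0.13). The 17 tested heat shock chaperones had no common direction by value, with 8 higher and 9 lower. Their median was −0.01 (centred 0.19), with 5 above (29.4%) and 1 below (5.88%). RPL18, MRPS18C, VPS29, HSPE1 and HSPD1 share exon bases with a tested gene on the other strand. Among RNA polymerase II subunits, 6 of 12 were above (50.0%, against 16.4% of all genes) and 0 below. Of the other calls with all 16 libraries, FKBP4 and IFTAP were listed at 0 in both 0 h libraries, with 0.221 and 0.252% for FKBP4 and 0.581 and 0.52% for IFTAP at 1.5 h; whether such a 0 is a failed estimate is not known.

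**Figure D3:**
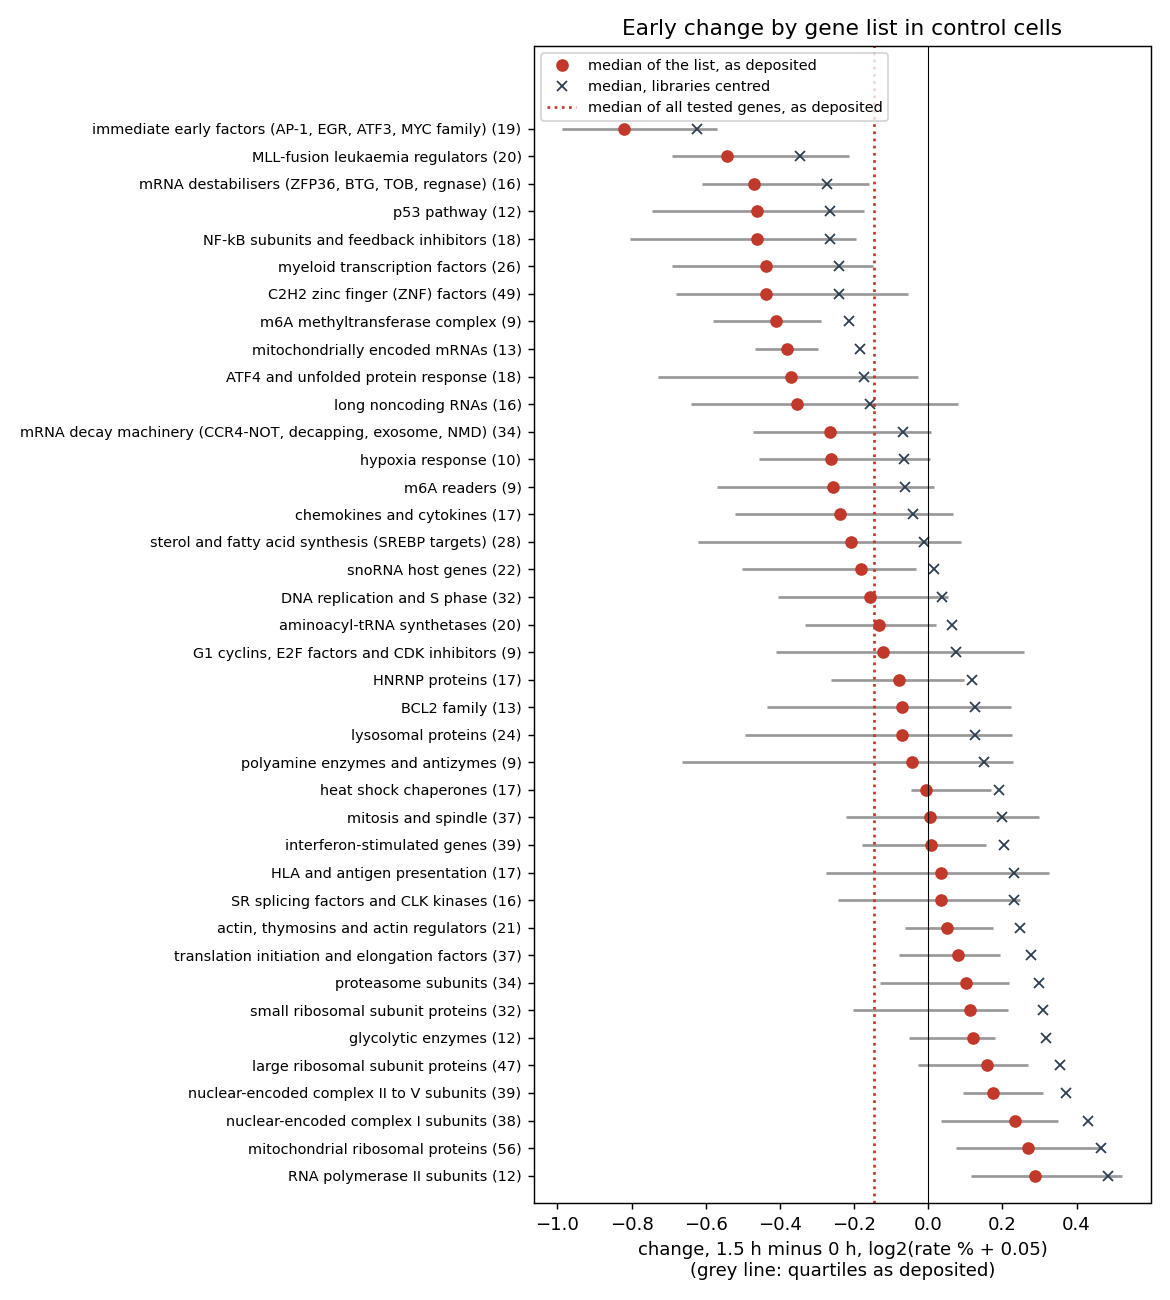
Change in rate from 0 h to 1.5 h in control cells (x axis, log2 of rate in percent plus 0.05, 1.5 h minus 0 h) for the lists with at least 9 tested genes (number in brackets); red points are medians as deposited, grey lines quartiles, crosses medians after centring, and the dotted line the median of all genes (−0.15). Immediate early factors lie at −0.82 and mitochondrial ribosomal proteins at 0.27; every cross lies 0.20 to the right of its point.

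Long noncoding RNAs did not move as one group: 7 of 16 tested were below (43.8%) and 2 above (12.5%). DLEU2, the host transcript of a microRNA cluster, had 0.559 and 0.576% at 1.5 h, against 0.875 and 0.89% at 0 h (change −0.59 ± 0.12; limma adjusted p 0.041 with all 16 libraries and 0.0689 with those centred), and it overlaps TRIM13 on the other strand. PVT1, next to MYC, had 0.583 and 0.502% at 1.5 h, against 0.799 and 0.877% at 0 h (change −0.59 ± 0.17). MALAT1, a nuclear RNA and the most abundant of the list, had 0.341 and 0.337% at 1.5 h, against 0.301 and 0.311% at 0 h; its change of 0.13 ± 0.04 had separate groups and a limma adjusted p of 0.345.

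The early change followed the length of the gene. With genes in 4 equal bins of genomic span, from the shortest (up to 13.9 kb) to the longest (from 91.2 kb), the median change was 0.13, −0.05, −0.24 and −0.43. Genes whose 1.5 h libraries lay below made up 16, 24.7, 38.7 and 55.1% of the bins, and those above 30.1, 18.8, 10.2 and 6.71%. It also followed how much label a gene had taken up, measured in the A5-KD libraries at 0 h, which are separate from those compared: in 4 equal bins of that rate, low to high, the median change in control cells was 0.17, 0.01, −0.27 and −0.49. The order by label held in each bin of span, and the order by span in each bin of label except between the 2 shortest bins at the highest label (−0.37 and −0.34). Among genes in the highest bin of label the median was −0.37 for the shortest genes and −0.57 for the longest, and among the longest genes it was 0.06 in the lowest bin of label and −0.57 in the highest. Spearman's rho across genes was −0.34 with span (10484 genes) and −0.46 with the A5-KD rate (10539 genes). Genes are not independent replicates. The lists above were not tested against genes of like span and label. MLL-fusion regulators had a median span of 129 kb and median A5-KD rates of 1.89 and 2.06% at 0 h. Of the longest genes with most label 73.8% were below, against 55.0% of that list. ZNF factors had a median span of 42.1 kb and median A5-KD rates of 1.88 and 1.9% at 0 h. In the bin of span next to the longest, 58.6% of genes with most label were below and 1.72% above. For ZNF factors these shares were 59.2% and 10.2%. Of the shortest genes with least label 37.2% were above, against 38.3% of large-subunit ribosomal proteins. Mitochondrial ribosomal proteins had 53.6% above, against 29.7% of the shortest genes in the next bin of label.

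**Figure D4:**
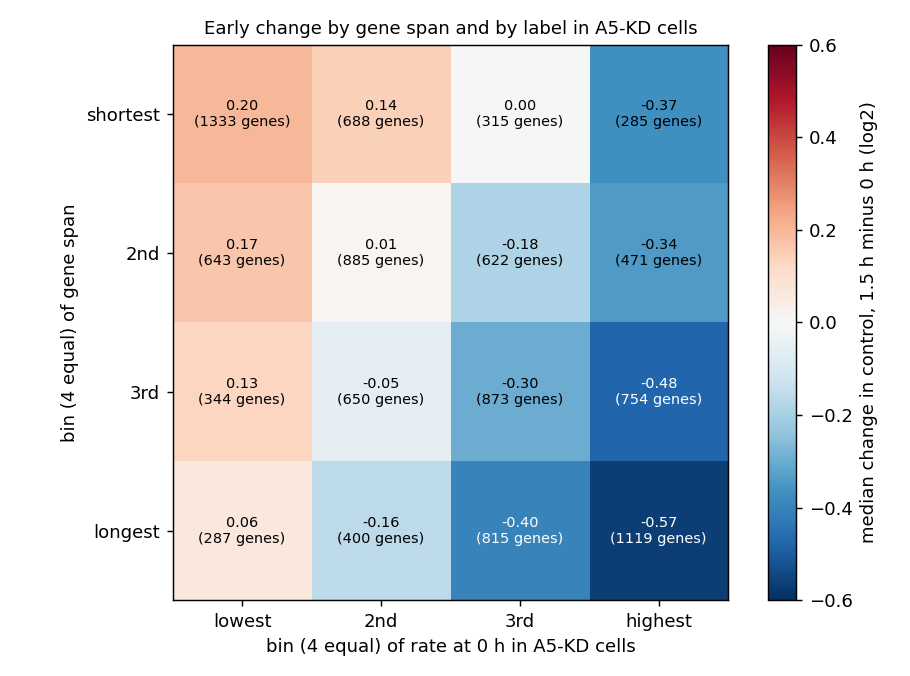
Median change in control cells (colour and upper number, log2, 1.5 h minus 0 h) by bin of gene span (rows, shortest at the top) and bin of the rate at 0 h in A5-KD cells (columns, lowest at the left), with the number of genes in brackets. Values run between 0.20 for short genes with little label and −0.57 for long genes with much label.

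The AU-rich heptamer printed in the sites above went with a lower change. TATTTAT, searched on the sense strand of the 3′ UTR with overlapping copies counted, was present in 31.6% of the 8780 tested genes with an annotated 3′ UTR. It was present in 39.7% of those whose 1.5 h libraries lay below and 20.5% of those above. The median change was −0.13 in genes with 0 copies (6003 genes), −0.26 with 1 copy (1651 genes) and −0.37 with 2 or more (1126 genes). Longer 3′ UTRs hold more copies by length alone, so the values were also taken within 4 equal bins of 3′ UTR length: from the shortest to the longest, the median was −0.24, −0.23, −0.29 and −0.34 with the heptamer, against −0.03, −0.13, −0.20 and −0.25 without it. A match is a description of the letters, not of a bound site. Genes with the heptamer also had a longer median span in each bin, 35.1, 44.5, 55.4 and 76.1 kb with it, against 20.8, 30.5, 39.3 and 58.8 kb without. They had more label as well, with a median rate in A5-KD replicate 1 at 0 h of 1.27, 1.44, 1.57 and 1.60% with it, against 0.88, 1.19, 1.32 and 1.42% without. The part of span and of label in this difference was not tested. MYC, EGR1 and ID1, with some of the largest drops, had 0 copies of it.

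The A5-KD libraries gave the same step in cells with more label, with median rates of 1.11 and 1.1% at 1.5 h, against 1.22 and 1.21% at 0 h. In A5-KD cells the median change was −0.10, and the 1.5 h libraries lay below in 3628 genes (34.4%) and above in 2155 (20.4%). Of the genes with separate groups, 2156 were below in both genotypes, which is 59.4% of the A5-KD genes and 61.0% of the control genes. A further 745 were above in both, 34.6% of the A5-KD genes and 43.0% of the control genes, and 424 were in opposite directions. Across the 10539 genes the changes of the 2 genotypes had a Spearman's rho of 0.42. Tested directly with limma on all 16 libraries, the difference between the genotypes (A5-KD change minus control change) passed the threshold in 0 of 10539 genes (0%; smallest adjusted p 0.529), with 143 genes lower (1.36%) and 247 higher (2.34%) at an unadjusted p under 0.05. ITGB2, the common beta chain of leukocyte integrins, had the smallest p on the higher side among genes of at least median abundance (21.6 CPM): its change was 0.32 in A5-KD cells and −0.73 in control cells, a difference of 1.05 (limma adjusted p 0.77). TIMM17B, of the mitochondrial import channel, had it on the lower side, with a change of −0.59 in A5-KD cells and 1.40 in control cells (limma adjusted p 1). MYB had −0.11 in A5-KD cells and −0.70 in control cells, and TLR2 had 0.09 in A5-KD cells and −1.09 in control cells; neither difference passed (limma adjusted p 1 for each). By list, the medians in A5-KD and control cells were −0.55 and −0.82 for immediate early factors, −0.34 and −0.38 for mitochondrially encoded messages, 0.38 and 0.27 for mitochondrial ribosomal proteins and 0.33 and 0.23 for nuclear complex I subunits.

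The later chase in control cells shares the 1.5 h libraries with the early step, so its values are given side by side only. The median change per hour was −0.10 between 0 and 1.5 h and −0.12 between 1.5 and 4.5 h. No gene passed a limma test of the difference in change per hour (0 of 10539, 0%; 451 genes, 4.28%, at an unadjusted p under 0.05). CCL4 had a mean rate of 1.07% at 0 h, 0.512% at 1.5 h and 0.158% at 4.5 h, and ZEB2 had 0.973, 0.573 and 0.259% at the same times. RPL18 had 0.0941, 0.139 and 0.246% in that order, and VPS29 had 0.177, 0.314 and 0.399%. FTL had 0.1, 0.14 and 0.166%, and NDUFB10 had 0.0412, 0.146 and 0.128%. Of these 4, NDUFB10 alone had no higher mean at 4.5 h than at 1.5 h. NIT1, of the nitrilase family, was among the 3 genes of at least median abundance with the smallest p for a higher early than middle change per hour, at 0.341 and 0.183% at 1.5 h, against 0.0118 and 0.0502% at 0 h, with a mean of 0.0385% at 4.5 h; it overlaps DEDD and PFDN2 on the other strand. ZNG1E was among the 3 on the lower side, at 0.271 and 0.224% at 1.5 h, against 1.13 and 0.815% at 0 h, with a mean of 0.329% at 4.5 h, and it has near-identical family copies.

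**Figure D5:**
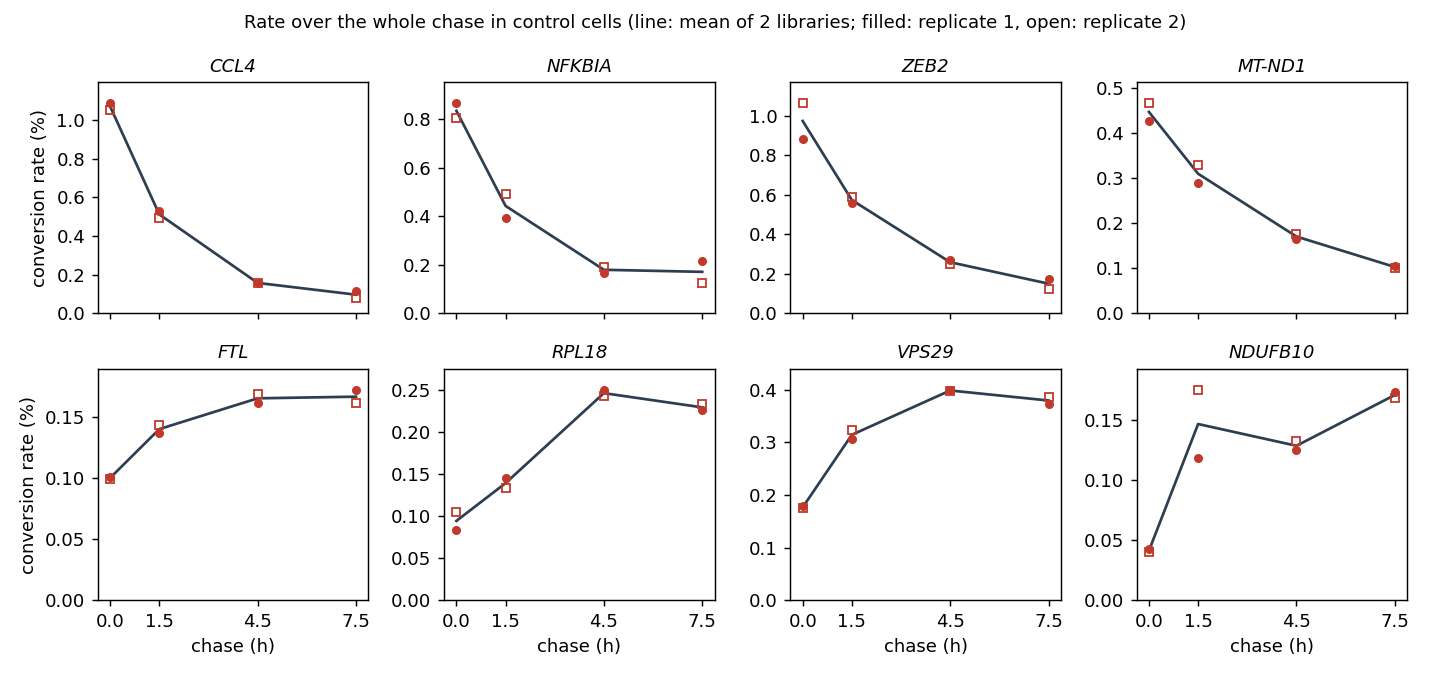
Conversion rate in percent (y axis, from 0) against hours of chase (x axis) in control cells for 8 genes; filled circles are replicate 1, open squares replicate 2, and lines the means. CCL4, NFKBIA, ZEB2 and MT-ND1 are lower at 1.5 h than at 0 h and lower again at 4.5 h, while FTL, RPL18 and VPS29 are higher at 1.5 h and at 4.5 h than at 0 h.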

How the data were processed

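SLAM-seq libraries of polyadenylated RNA were made with a NEBNext kit according to the labels. CASAVA, HISAT2 2.1.0 and the hg38 build are named in the submitters' processing notes, and the software that called conversions is not given in the sources used here. The deposited table gives 1 fraction per gene and library, read here from the values and the assay as the T-to-C conversion rate and multiplied to percent, since the file headers do not name it. Columns that begin with S were taken as A5-KD by elimination. The deposited CPM column, per the file headers, is 1 column for the series whose library is not stated. Its low values above 0, the only ones checked, were all whole reads within a tolerance of 0.1. The column served to filter genes and to set the variance trend. A test of counts on the recovered reads was not possible, since they are a single column. Depth behind each rate is unknown, and no library without 4sU was used, so background mismatch was not measured.

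Rates in percent plus a pseudocount of 0.05 were put on the log2 scale and fitted with limma 3.58.1 in R 4.3.3 as 4 group means over the 8 control libraries, with moderated variances (trend: log2(CPM + 0.01)); p-values were adjusted by Benjamini-Hochberg over 10539 genes, with a threshold of 0.05. A log2 change with a pseudocount understates changes of low rates. The difference between genotypes was fitted on all 16 libraries. Named genes were up to 4 per list by adjusted p, 3 per direction in each difference, and ALKBH5; others are said to be chosen after their values were seen. The members, the 52 lists and the tests were chosen with earlier results of these data known. The script was tested on simulated data. Gene spans, UTRs and sequences came from GENCODE 29, to which 10484 tested genes matched. Of the genes considered for the text, 35 share exon bases with another tested gene, and strand use in the counting is not stated. Many genes that the naming rule picks are not reported here.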

Additional observations from a re-analysis of the deposited data

How the results depend on the processing

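The number of genes called between 1.5 h and 0 h was 0 in each direction under both other pseudocounts, both other CPM minimums, the restriction to genes above 0 in all 4 libraries, centring, and the omission of each of the 4 libraries in turn (0 to 0 genes). With the replicate block it was also 0. Deviations of same-numbered libraries at 1.5 h and 0 h had a correlation of -0.01 across genes. Noise separate to each library would also give such a value, so it cannot show whether the numbers pair the samples. With all 16 libraries the block gave 8 lower and 2 higher. The 4 libraries alone gave 1 higher (SORBS2, listed at 0 in both 0 h libraries). All 16 libraries gave 34 lower and 8 higher; in fits added after seeing the data these became 9 and 104 when centred, 9 and 7 with a pseudocount of 0.01, 134 and 6 with one of 0.25, and 11 and 2 with genes above 0 in all 4. The cause of these shifts was not tested. The median change moved to -0.10 with a pseudocount of 0.25, to -0.10 with a CPM minimum of 20 and to 0.0503 when centred, and lay between -0.17 and -0.14 with a library left out. Centring also moved the share of genes with separate groups and higher rates to 27.2%. A CPM minimum of 1 gave 1 gene lower in A5-KD minus control. No change given in the report for a named gene reversed under the alternatives run for it. A DESeq2 alternative was not run, since the table holds rates. Limits are the unknown depth per rate, 2 libraries per time and that no unlabelled library was used here.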

Other observations

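Several lists of cell growth had no common direction in control cells. Of 37 tested genes of mitosis and the spindle, 9 had both 1.5 h libraries below both 0 h libraries (24.3%, against 33.6% of all genes) and 11 above (29.7%, against 16.4%), with a median change of 0.00 as deposited and 0.20 after centring. CDK1, the mitotic kinase, had 0.608 and 0.714% at 1.5 h, against 0.31 and 0.46% at 0 h (change 0.73 ± 0.30), and HMMR, a spindle protein, had 0.653 and 0.66% at 1.5 h, against 0.417 and 0.353% at 0 h (change 0.70 ± 0.26). Their adjusted p-values in limma were 0.429 for CDK1 and 0.409 for HMMR. Of 32 tested genes of DNA replication, 11 were below (34.4%) and 3 above (9.38%). In A5-KD cells 20 of the 37 mitotic genes were above and 1 below, while 20.4% of all genes were above and 34.4% below in those cells.

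Genes of the stress response leaned lower, and interferon-stimulated genes were split. Of 18 tested genes of the ATF4 and unfolded protein response, 9 were below (50.0%) and 1 above (5.56%), with a median of -0.37 (centred -0.17). Within it DDIT3, a stress transcription factor that overlaps MARS1, had 0.497 and 0.605% at 1.5 h, against 0.931 and 1.11% at 0 h (change -0.84 ± 0.28), while SHMT2, a mitochondrial serine enzyme that ATF4 induces, had 0.391 and 0.369% at 1.5 h, against 0.165 and 0.246% at 0 h (change 0.77 ± 0.23). Of 39 tested interferon-stimulated genes, 11 were below (28.2%) and 9 above (23.1%), with a median of 0.01 (centred 0.20). ISG15, a ubiquitin-like modifier, had 0.228 and 0.215% at 1.5 h, against 0.171 and 0.179% at 0 h (change 0.27 ± 0.09). In polyamine metabolism AMD1, which makes decarboxylated S-adenosylmethionine, had 0.662 and 0.677% at 1.5 h, against 1.05 and 1.22% at 0 h (change -0.72 ± 0.22).

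Processed pseudogenes, which share sequence with their parent genes, had 160 of 389 tested members above (41.1%, against 16.4% of all genes). Below were 33 (8.48%, against 33.6%), and the median was 0.23 (centred 0.42). Their median span was 0.435 kb, and their median A5-KD rates at 0 h were 0.35 and 0.33%. Of the shortest genes with least label, 37.2% were above and 9.6% below. How reads were divided between the pseudogenes and the parents was not measured.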
